A study of Mus musculus with 6 samples.

Results

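The Hmgb2 and Hand2 locus on mouse chromosome 8 was described by the contacts of its promoters. Its members were 5 neighbouring genes, Hand2, Scrg1, Sap30, Hmgb2 and Galnt7. A bait, which is a captured promoter fragment, was taken where it overlapped the annotated body of a member extended by 2 kb. This gave 5 of the 19083 baits in the files, 1 for each gene, and 15 of the 84105 same-chromosome loops listed over 6 libraries. The members were chosen by a measured value, the lower deposited fold change of an Hmgb2 promoter contact after Brg1 depletion, so the Brg1KD against Control values below describe that choice and carry no test.

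Promoter-capture Micro-C cuts crosslinked chromatin with micrococcal nuclease, joins fragments that lie close together and enriches for joins that involve a promoter. The libraries came from wild-type E14 cells, a male mouse embryonic stem cell line grown with serum and LIF, collected 48 h after transfection with esiRNA, a mixture of short interfering RNAs made by digesting a longer one. Brg1KD cells received esiRNA against Smarca4, the gene of Brg1, Ino80KD cells received esiRNA against Ino80, and Control cells received esiRNA against EGFP. Each group had 2 libraries. Replicate 1 of each group was in batch 1, replicate 2 of Brg1KD and of Ino80KD in batch 3, and replicate 2 of Control in batch 2. Separate cultures per replicate are not stated in the labels, and p-values then measure only the spread between these samples. Micro-C carries no RNA signal, which leaves the depletions, the cell type and the activity of the 5 genes unchecked here.

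Brg1 is the ATPase of the BAF chromatin remodelling complex of stem cells and Ino80 that of the INO80 complex. Both complexes move or exchange nucleosomes, and promoters and enhancers are among the sites where they act. The locus places a developmental gene beside genes of general function. Hand2 encodes a basic helix-loop-helix transcription factor needed for heart, limb and branchial arch development. Hmgb2 encodes an HMG-box protein that bends DNA and is abundant in dividing cells. Sap30 encodes a subunit of the Sin3 histone deacetylase corepressor complex. Scrg1 encodes a small secreted protein first linked to scrapie and later to cartilage formation. Galnt7 encodes a Golgi enzyme that adds N-acetylgalactosamine to proteins during mucin-type O-glycosylation.

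The baits ran in the order Hand2, Scrg1, Sap30, Hmgb2 and Galnt7 along the chromosome (build mm10). The Hand2 bait was chr8:57319586-57321945 and also held the annotated end of the long noncoding RNA gene Hand2os1. The Scrg1 bait was chr8:57454803-57456662. The Sap30 bait was chr8:57486934-57488980 and also held an end of the noncoding gene 2500002B13Rik. The Hmgb2 bait was chr8:57510723-57512582 and the Galnt7 bait, which also lies within the noncoding gene AW046200, was chr8:57652264-57654123. From the Hand2 bait to the Hmgb2 bait was 189 kb, from the Sap30 bait to the Hmgb2 bait 21.7 kb, and from the Hmgb2 bait to the Galnt7 bait 140 kb. Each bait held an annotated end of its gene. A contact of a bait that meets 2 genes cannot be given to one of them.

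RefSeq promoter sequences (build GRCm38.p6, 250 bases before to 50 after the gene start) were found for 4 of the 5 members, and each lay whole on its bait. Shown are the promoters of Hmgb2, Hand2 and Galnt7, the baits with the most listed loops. Capitals mark CCAAT on either strand, the core of the CCAAT box, a promoter element bound by NF-Y in many cell-cycle genes.
Hmgb2 (chr8:57511593-57511892, + strand): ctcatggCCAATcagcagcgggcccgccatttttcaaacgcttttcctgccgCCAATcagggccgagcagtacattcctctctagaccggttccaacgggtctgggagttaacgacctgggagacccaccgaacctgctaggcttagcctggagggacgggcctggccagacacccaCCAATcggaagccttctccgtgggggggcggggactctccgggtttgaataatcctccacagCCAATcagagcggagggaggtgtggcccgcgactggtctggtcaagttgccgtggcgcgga
Hand2 (chr8:57320733-57321032, + strand): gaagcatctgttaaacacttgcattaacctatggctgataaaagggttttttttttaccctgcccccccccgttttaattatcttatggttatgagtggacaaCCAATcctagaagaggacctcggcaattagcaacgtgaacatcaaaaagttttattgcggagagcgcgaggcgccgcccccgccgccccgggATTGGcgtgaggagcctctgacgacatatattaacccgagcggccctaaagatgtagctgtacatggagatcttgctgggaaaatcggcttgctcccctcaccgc
Galnt7 (chr8:57653006-57653305, - strand): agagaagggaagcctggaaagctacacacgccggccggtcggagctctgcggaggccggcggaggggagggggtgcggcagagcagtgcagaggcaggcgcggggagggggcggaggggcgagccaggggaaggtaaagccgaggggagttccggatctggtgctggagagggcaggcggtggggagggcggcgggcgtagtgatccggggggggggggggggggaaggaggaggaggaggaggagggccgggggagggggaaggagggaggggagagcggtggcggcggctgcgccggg
The Hmgb2 promoter held 4 CCAAT sites, at positions -243, -198, -73 and -11 from the gene start, all in the direction of the gene. The Hand2 promoter held 2, at -147 in the direction of the gene and at -55 on the opposite strand. The Sap30 and Galnt7 promoters held 0. Of 32851 RefSeq promoters of this length, 37.4% held the motif at least once and 1.06% at least 4 times. The GC box core GGGCGG, which was in 35.7% of all promoters, was present in all 4 promoters found, once or 2 times each. The E-box CANNTG, in 72.3% of all promoters, was found 2 times in Hand2, 1 time in Sap30 and 0 times in Hmgb2 and Galnt7. The TATA box core TATAAA, in 13.6% of all promoters, was in 0 of the 4. GC content was 62.0% for Hmgb2, 50.3% for Hand2, 59.3% for Sap30 and 75.0% for Galnt7, against a median of 52.7%. A match is a stretch of letters and not a shown binding site.

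Each library's list gives loops with the authors' own interaction score, from 5 up. A contact may exist below that minimum without being listed. The lists held 12313 to 15385 same-chromosome loops per library, and the sequencing depth behind them is unknown. The 17310 baits with at least 1 such loop had a median of 3 over the 6 libraries. The Galnt7 bait had 5 loops over the 6 libraries, the Hmgb2 and Hand2 baits 4 each, and the Sap30 and Scrg1 baits 1 each. Thus every loop count for a single member rests on at most 3 loops in a library.

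At the Hmgb2 bait, loops were not listed in Brg1KD and were listed in 1 Ino80KD library and in both Control libraries. The numbers were 0 and 0 in Brg1KD, 0 and 2 in Ino80KD, and 1 and 1 in Control. Ino80KD replicate 2 joined the bait to chr8:57400001-57420000, on the side towards Hand2, which overlaps the noncoding gene Gm34099, with a score of 6.57. It also listed a loop on the other side, 278 kb away at chr8:57780001-57800000, with a score of 5.05. In both Control libraries the loop joined the bait to the adjoining stretch chr8:57420001-57440000, 81.7 kb towards Hand2, with a score of 6.09 in replicate 1 and 5.24 in replicate 2. Within its own list, 47.2% of same-chromosome loops scored as high or higher in Control replicate 1 and 83.0% in Control replicate 2, so these were not among the strongest contacts. Neither Brg1KD library reached the number of either Control library, and the Ino80KD libraries lay on both sides of Control.

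At the Hand2 bait the listing ran the other way. Brg1KD replicate 1 listed 1 loop and replicate 2 listed 3, against 0 in both Ino80KD libraries and 0 in both Control libraries. The loop found in both Brg1KD libraries joined Hand2 to chr8:56880001-56900000, 431 kb away on the side away from Hmgb2, with scores of 7.09 in replicate 1 and 5.95 in replicate 2. Replicate 2 also listed the adjoining stretch chr8:56860001-56880000 with a score of 8.35. Both stretches overlap the noncoding gene Gm33501, named here after its values were seen. A further loop of replicate 2, 691 kb away at chr8:56620001-56640000, scored 5.05.

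The nearest bait outside the rule was chr8:57304619-57306478 within Hand2os1, 14.5 kb from the Hand2 gene body. Its loops reached the same side, at chr8:56920001-56940000 in Ino80KD replicate 1 with a score of 5.00 and at chr8:56900001-56920000 in Control replicate 2 with a score of 5.87. It had 0 loops in the Brg1KD libraries. Taking that bait and the Hand2 bait together, the 80.0 kb stretch chr8:56860001-56940000 was listed 1 and 2 times in Brg1KD, 1 and 0 times in Ino80KD, and 0 and 1 times in Control. This stretch was picked out after its values were seen, as a run of adjoining loop ends of both baits, so its listings in all 3 groups follow partly from that choice. On the opposite side of the locus the next bait, within Galntl6, lay 309 kb from the Galnt7 body and listed 1 loop in all, in Ino80KD replicate 2.

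The Galnt7 bait had the contact that most libraries shared. It joined chr8:57780001-57800000, 137 kb beyond the gene, and was listed in 5 of 6 libraries, Brg1KD replicate 1 being the exception. Its score was 5.24 in Brg1KD replicate 2, 5.09 and 5.65 in Ino80KD, and 8.86 and 7.40 in Control. Scores belong to separately called lists and are not compared across libraries. Within their own lists, 83.2% of loops scored as high or higher in Brg1KD replicate 2, 94.3% and 61.8% in Ino80KD, and 10.4% and 19.2% in Control. The stretch overlaps the downstream end of Galntl6, the gene of a related glycosyltransferase-like protein whose promoter lies at the opposite end of the gene, and the edge of the noncoding gene Gm2921.

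The single loops of Sap30 and Scrg1 reached the same place. Sap30 was listed with chr8:57780001-57800000 in Brg1KD replicate 1, 302 kb away with a score of 5.42. Scrg1 was listed with the adjoining chr8:57760001-57780000 in Brg1KD replicate 2, 314 kb away with a score of 5.26. Both had 0 loops in the other libraries. Together with Hmgb2 in Ino80KD replicate 2, loops of 4 of the 5 baits therefore ended in the 40.0 kb stretch chr8:57760001-57800000, which was picked out after its values were seen. It took 8 of the 15 listings, at 1 and 2 in Brg1KD, 1 and 2 in Ino80KD and 1 and 1 in Control, so every library held at least 1. Baits outside the locus listed 0 same-chromosome loops with it. Between any pair of the 5 baits, 0 loops were listed in any library.

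**Figure D1:**
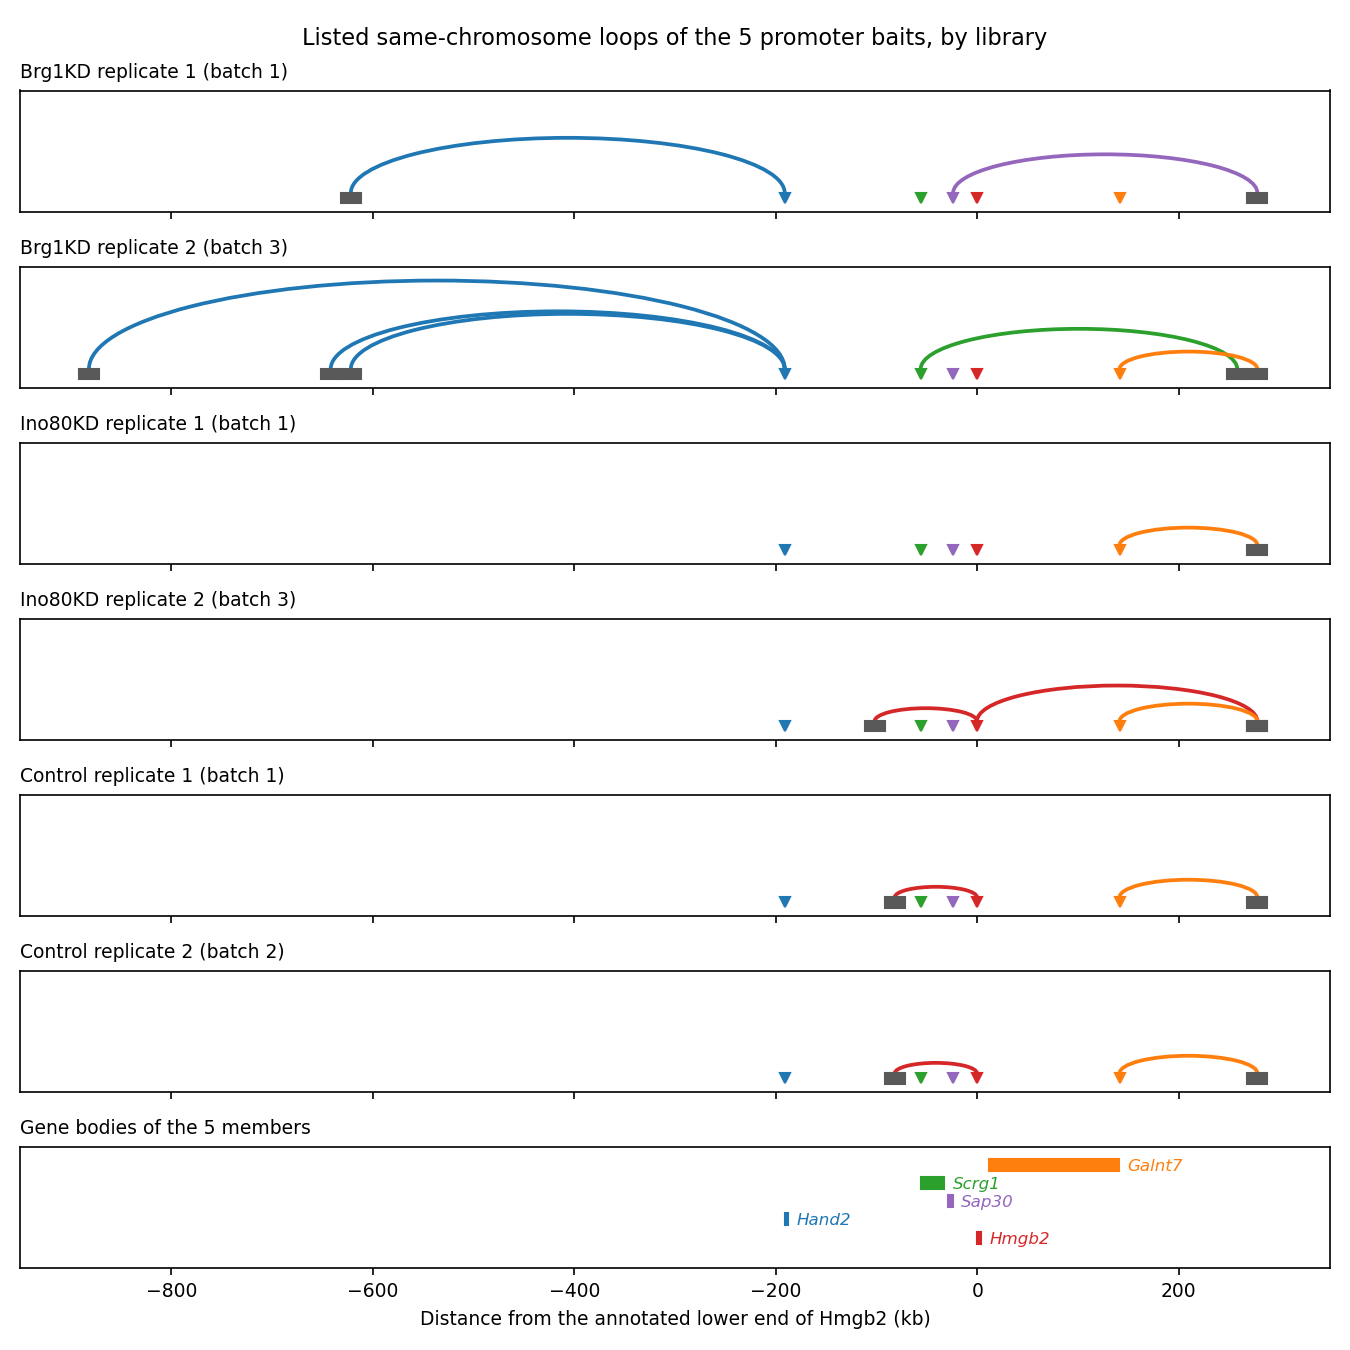
Loops listed in each library, drawn as arcs from the bait (coloured triangle) to the other end (grey block), by distance in kb from the annotated lower end of Hmgb2, with arc height set by the span alone. Hand2 arcs (blue) appear in the 2 Brg1KD libraries, short Hmgb2 arcs (red) in Ino80KD replicate 2, with a span of 102 kb, and in both Control libraries, with a span of 81.7 kb, and the Galnt7 arc (orange) in 5 of 6 libraries.

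Counted over the locus, 2 and 5 loops were listed in Brg1KD, 1 and 3 in Ino80KD, and 2 and 2 in Control. Per 1000 same-chromosome loops of the library this was 0.162 and 0.384 in Brg1KD, 0.0678 and 0.212 in Ino80KD, and 0.130 and 0.138 in Control. The highest value, in Brg1KD replicate 2, had an exact 95% binomial interval of 0.125 to 0.895, and the lowest, in Ino80KD replicate 1, one of 0.00172 to 0.378. These intervals cover counting error only.

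The mean per 1000 loops was 0.140 ± 0.102 in Ino80KD and 0.134 ± 0.00594 in Control (SD, n = 2 each), with a two-sided exact permutation p of 1.00, where the smallest that 2 against 2 libraries allow is 0.333. Within batch 1, with 1 library each, the values were 0.0678 and 0.130. The Control libraries also entered the value for which the locus was chosen, so the permutation is not independent of that choice. Brg1KD had a mean of 0.273 ± 0.156 (SD, n = 2), and within batch 1 its value was 0.162 against 0.130 in Control. Ino80KD was below Brg1KD within both batches that held them, at 0.0678 against 0.162 in batch 1 and at 0.212 against 0.384 in batch 3. These values rest on 1 loop against 2 in batch 1 and on 3 against 5 in batch 3. The Brg1KD libraries entered the value for which the locus was chosen, so this contrast is described without a test and is no independent support. Brg1KD minus Control was 0.139 per 1000, and 0.0282 without Brg1KD replicate 2. Ino80KD minus Brg1KD was -0.133, against -0.0227 without Brg1KD replicate 2 and -0.0946 within batch 1, which also leaves that library out.

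Over all baits, the number of loops was lower in both Brg1KD libraries than in both Control libraries at 8.95% of 15257 baits and higher in both at 4.64%. Among the 5 members, 1 was lower in this sense (Hmgb2) and 1 higher (Hand2), and nothing is read from either, since the choice used this contrast. For Ino80KD against Control the shares over all baits were 7.06% lower and 6.12% higher, and 0 of the 2 members with a loop in these libraries lay in either class. For Ino80KD against Brg1KD the shares were 5.05% lower and 9.05% higher, with 1 member lower (Hand2, 0 and 0 against 1 and 3) and 0 higher. The numbers of loops in these shares were not corrected for list length. The lists held 12313 and 13032 same-chromosome loops in Brg1KD, 14752 and 14172 in Ino80KD, and 15385 and 14451 in Control. How far list length moves the shares was not tested. The counts of members are too few to be set apart from these shares.

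The authors also deposited a table for each depletion, with a log2 fold change, its standard error and p-values per contact region of a bait. A region in these tables usually spans 11 fragments around a listed loop. Fragments here are baits and the bins, of 20 kb or less, that form the other ends of loops, and not single nuclease pieces. The middle fragment could be located in 22435 regions of the Brg1KD table, and in 99.3% of these the bait had a loop there in a Brg1KD or Control library. All 7 regions of the locus in the Brg1KD table and all 4 in the Ino80KD table were centred on a loop in this way, so the tables and the lists rest on the same libraries. The remaining regions were not located, and a small share of those located had no listed loop at the middle. Hand2, Sap30 and Scrg1 had regions in the Brg1KD table alone, and the effect of Ino80 depletion on them cannot be given. The loops at the middle of these regions were listed in Brg1KD and not in Control. The Hmgb2 region chr8:57332858-57486933, present for both depletions, was centred on a loop of both Control libraries only. The other Hmgb2 regions in the Ino80KD table were centred on loops of Ino80KD replicate 2 only. Only the Galnt7 regions were centred on a loop listed both in Control and after the depletion.

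The headers do not state the direction of the fold changes. Above 0 in the authors' deposited table were 82.0% of regions centred on loops of both Brg1KD libraries only, against 19.3% of those of both Control libraries only, and for Ino80KD 84.6% against 15.6%. Values above 0 are thus read as higher after depletion.

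The Hmgb2 region (chr8:57332858-57486933) had in the authors' deposited table for Brg1KD a log2 fold change of -0.89 ± 0.30 (SE), or 0.540 of the Control level, with an unadjusted p of 0.00281 and an adjusted p of 1.00. It ranked 7 by p among 33243 regions of the authors' deposited table, and this is the value for which the locus was chosen. The region held the Scrg1 bait, the whole Scrg1 gene and most of the Sap30 gene, and stopped at the edge of the Sap30 bait. It also held the whole noncoding gene Gm34099 and parts of the noncoding genes Hdnr and Gm34030. It began 10.9 kb beyond the Hand2 bait and did not contain it, so it is no measure of contact between the Hmgb2 and Hand2 promoters. After Ino80 depletion the same region stood in the authors' deposited table at -0.19 ± 0.26 (95% interval -0.70 to 0.32, unadjusted p = 0.469, adjusted p = 1.00). The 2 tables share the Control libraries, and the difference between the depletions was not tested. The loop at the middle of the region was listed in both Control libraries and after neither depletion. Of regions centred on such loops only 15.6% were above 0 in the Ino80KD table, so the interval and p are no independent test of this region.

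The listing of Hand2 loops in Brg1KD was not matched by a fold change beyond its error. In the authors' deposited table the region around the loop of both Brg1KD libraries (chr8:56780001-57000000) was at 0.14 ± 0.24 and its neighbour (chr8:56760001-56980000) at 0.19 ± 0.25 (log2 fold change ± SE). These 2 regions overlap by 200 kb and share contacts. The farthest Hand2 region (chr8:56549970-56700000) was in the authors' deposited table at -0.32 ± 0.34 although its loop was listed in Brg1KD replicate 2 only. The neighbouring Hand2os1 bait had -0.17 ± 0.35 in the authors' deposited table for Brg1KD, and -0.27 ± 0.35 and -0.12 ± 0.35 in that for Ino80KD.

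The contacts with the Galntl6 side had 95% intervals that included 0 after either depletion. After Brg1 depletion the authors' deposited table gave a log2 fold change of -0.16 ± 0.21 for Galnt7, -0.11 ± 0.33 for Sap30 and 0.026 ± 0.30 for Scrg1, in regions that overlap by 200 kb or more. After Ino80 depletion it was in the authors' deposited table -0.26 ± 0.21 for Galnt7 (95% interval -0.67 to 0.15, unadjusted p = 0.215, adjusted p = 1.00) and 0.18 ± 0.42 for Hmgb2 (95% interval -0.65 to 1.00, unadjusted p = 0.673, adjusted p = 1.00). The Galnt7 region carried the highest mean signal of the locus, 167 in the authors' deposited table for Brg1KD and 179 in that for Ino80KD, where the medians over all regions were 59.5 and 62.7. The Hmgb2 region on this side carried the lowest, 34.7 in the authors' deposited table for Ino80KD, and had the largest error.

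**Figure D2:**
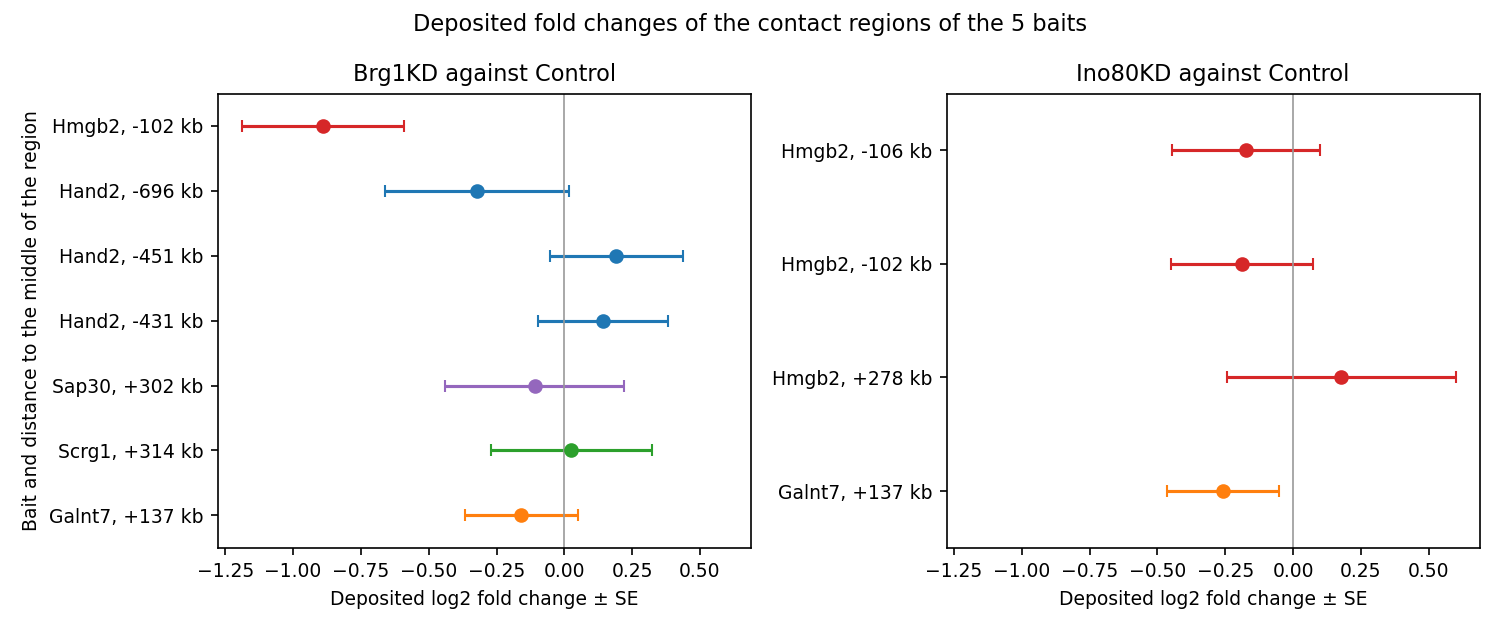
Log2 fold change ± SE of each contact region in the authors' deposited tables, Brg1KD against Control on the left and Ino80KD against Control on the right, by bait and distance to the middle of the region. The Hmgb2 region 102 kb below its bait is at -0.89 after Brg1 depletion and at -0.19 after Ino80 depletion, and the other values lie between -0.32 and 0.19.

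At an adjusted p under 0.05, 0 of 7 locus regions were called in the authors' deposited table for Brg1KD, where 0% of all regions were, and 0 of 4 in that for Ino80KD, where likewise 0% were. At an unadjusted p under 0.05, 0.827% of all regions in the authors' deposited table for Brg1KD were lower and 0.373% higher, and the locus had 1 lower region, that of Hmgb2, and 0 higher. In the authors' deposited table for Ino80KD 0.382% of all regions were lower and 0.912% higher at that threshold, and the locus had 0 of either. The median log2 fold change over the locus regions of the authors' deposited table was -0.11 for Brg1KD, below 0 in 4 of 7, where the median over all regions was -0.0084. For Ino80KD it was -0.18 in the authors' deposited table, below 0 in 3 of 4, with 0.0023 over all regions.

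**Figure D3:**
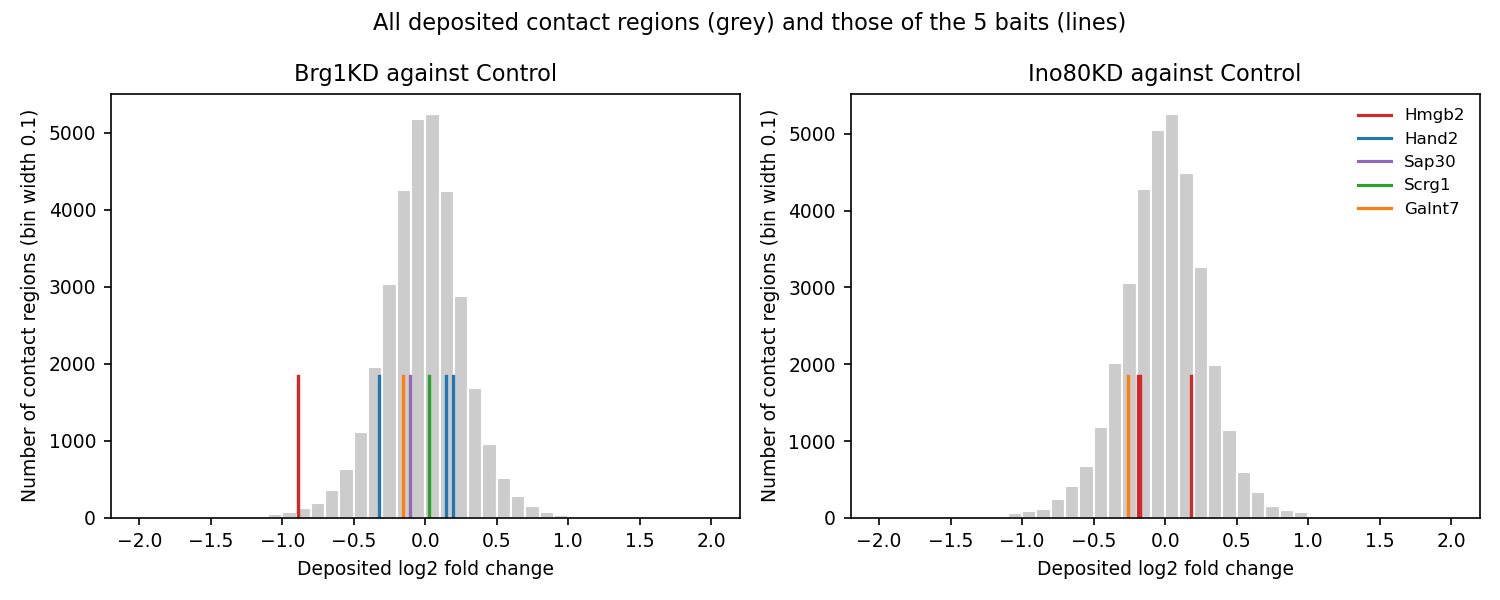
Number of contact regions by log2 fold change in the authors' deposited tables (grey bars, bin width 0.1) with the regions of the 5 baits as coloured lines of fixed height, Brg1KD against Control on the left and Ino80KD against Control on the right. The Hmgb2 line at -0.89 after Brg1 depletion lies in the lower tail, and the other lines of both panels lie between -0.32 and 0.19.

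Genes that share a function with the members were read in the same tables, in lists that include the members themselves. Over all regions, 51.3% were below 0 in the authors' deposited table for Brg1KD, with a median of -0.0084, and 49.6% in that for Ino80KD, with a median of 0.0023. Of 12 genes of high-mobility-group proteins and of the histone chaperone FACT, 5 had regions in the authors' deposited table for Brg1KD. The median of their 19 regions there was -0.13, with 17 below 0, and the 1 region with an unadjusted p under 0.05 was that of Hmgb2 itself, for which the locus was chosen. Supt16, a FACT subunit, gave 10 of these regions, with a weighted mean of -0.13 ± 0.070 (SE, regions taken as independent although they overlap) in the authors' deposited table for Brg1KD and -0.10 ± 0.081 in that for Ino80KD. Over 21 regions of the authors' deposited table for Ino80KD the median was -0.035, with 13 below 0.

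Of 19 genes of the Sin3 deacetylase complex, to which Sap30 belongs, the authors' deposited table for Brg1KD gave a median of -0.11 over 19 regions and that for Ino80KD 0.046 over 22, with 0 regions at an unadjusted p under 0.05 in either. Named by the size of their mean over its error were Sap18, a subunit, at 0.33 ± 0.27 in the authors' deposited table for Ino80KD, and Sin3a, the scaffold, at -0.19 ± 0.17 in that for Brg1KD. For Ino80KD Sin3a was at -0.14 ± 0.15 in the authors' deposited table. Of 20 Galnt family genes the medians were -0.16 over 25 regions in the authors' deposited table for Brg1KD, with 19 below 0 where 51.3% of all regions were, and -0.16 over 22 regions in that for Ino80KD, with 17 below 0 where 49.6% of all regions were. These lists were not tested, and overlapping regions of a gene share contacts. Named by the size of their mean over its error were Galnt6 and Galnt3. Galnt6 had a weighted mean of -0.27 ± 0.13 over 6 regions, taken as independent, in the authors' deposited table for Ino80KD. In that for Brg1KD it was at -0.14 ± 0.14. Galnt3 was at -0.53 ± 0.32 in 1 region for Brg1KD and went the other way for Ino80KD, at 0.074 ± 0.24 over 2 regions.

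For 17 heart and limb regulators that act with or around Hand2, the authors' deposited table gave a median of -0.080 over 42 regions for Brg1KD, with 0 at an unadjusted p under 0.05, and of 0.11 over 48 regions for Ino80KD. In that for Ino80KD 2 of the 48 regions passed the unadjusted threshold, both higher, where 0.912% of all regions were. Both belonged to Gata3, named here after its values were seen, at 0.99 ± 0.33 and 1.22 ± 0.37 in the authors' deposited table, while the weighted mean over all 12 Gata3 regions there was 0.085 ± 0.114. Named by the size of their mean over its error were Shh and Tbx20. Shh, a limb signalling gene downstream of Hand2, had a weighted mean of 0.22 ± 0.084 over 12 regions in the authors' deposited table for Ino80KD. In that for Brg1KD Shh went the other way, at -0.073 ± 0.107 over 7 regions. Tbx20, a heart factor, had a weighted mean of -0.25 ± 0.17 over 3 regions in the authors' deposited table for Brg1KD and of -0.085 ± 0.116 over 5 in that for Ino80KD. The errors of these weighted means take the regions of a gene as independent, and are too small where regions overlap. In all 4 lists 0 regions of the authors' deposited tables had an adjusted p under 0.05.

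Among 2408 other baits with at least 10 loops, those whose loops per 1000 over the 6 libraries were most like the locus by Pearson correlation lay at Olfr569 (0.976), Adm (0.972), Olfr1272 (0.939), Alox12 (0.928) and Aplnr (0.922). The points are 6 libraries that share depth and list length with the locus, and the values describe a pattern led by Brg1KD replicate 2. These are the 5 highest of 2408 correlations, picked by their size, and were not tested.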

How the data were processed

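The members and gene lists were chosen with earlier results of these data known. Loops per library were deposited with the authors' interaction score, whose scale and caller are not given in the sources used here. The authors' deposited comparison tables give for each region, per the file headers, a log2 fold change and its standard error, the signal averaged over libraries after normalization, a test statistic (a score), and raw and adjusted p-values. The submitters' processing notes name mm10 and bedtools. Depth per library is unknown, and no counts per library were used, so the count test planned for that case was not run. Groups came from the titles.

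From these files, loops with a member's bait at either end were counted by library with pandas 2.3.3 in Python 3.11.15, and compared by exact permutation with SciPy 1.17.1. Fold changes were averaged per gene with inverse squared errors as weights. A simulation with independent errors checked the arithmetic only. It cannot show that the error holds for overlapping regions of a gene. Genes were named from RefSeq (GRCm38.p6). Beyond the members, genes were named where they overlap the far end of a loop in 3 or more libraries or a region with an unadjusted p under 0.05, by likeness over libraries (5), or by the size of their mean over its error within a list (up to 2). Exceptions are marked as named after their values were seen, and genes that overlap a bait, or hold the nearest bait outside the rule, were named as annotation. Alternatives were the minimum score, the window, the denominator, single batches, left-out replicates, a replicate block, and the regions and weights averaged. Replicate numbers mark a shared batch for Brg1KD and Ino80KD, and for Control only in replicate 1.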

Additional observations from a re-analysis of the deposited data

How the results depend on the processing

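Of 44 alternatives for the locus-wide values, 39 neither reversed nor moved past the spread between replicates or the error. This count does not measure robustness, because several alternatives could not differ from the main value. The windows took the same baits, the replicate block kept the differences, and leaving out regions of low signal kept all 7 and all 4 regions. The spread also allowed large shifts, being 0.111 for Brg1KD minus Control. The Ino80KD minus Control difference of 0.0055 loops per 1000 turned to -0.263 with a minimum score of 7 (exact permutation p = 0.333) and to -0.0622 in batch 1 alone, and without 1 replicate it ran from -0.0664 (Ino80KD replicate 2 left out) to 0.0775. With a minimum score of 7, Ino80KD minus Brg1KD was -0.335 against -0.133. This minimum also cut the same-chromosome loops that form the denominator, so its values per 1000 are not on the main scale. The locus loops left were those of Hand2 in Brg1KD, with scores of 7.09 and 8.35, and of Galnt7 in Control, with 8.86 and 7.40. Without 1 replicate, and at the main minimum, Ino80KD minus Brg1KD ran from -0.244 to -0.0227, the smallest size without Brg1KD replicate 2. Brg1KD minus Control, 0.139, ran from 0.0282 without Brg1KD replicate 2 to 0.249 without Brg1KD replicate 1. The median of the authors' deposited log2 fold changes for Brg1KD was -0.52 over the 2 regions in both tables, 1 of which is that of Hmgb2. With the replicate number as a block the differences were the same, 0.0055 for Ino80KD minus Control, and with 2 pairs a sign permutation cannot go below 0.5. A minimum score of 10 left 0 locus loops. Windows of 0 and 10 kb took the same baits. Loops counted as shared within 5 kb numbered 7 instead of 9. The cause of these shifts was not tested. Every loop count rests on at most 3 loops per bait and library, and the depth behind them is unknown.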

Other observations

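The Hmgb2 bait also had 2 interchromosomal loops, which the counts above leave out. One joined it to chromosome 1, 169640001 to 169654380, in Ino80KD replicate 1 with a score of 12.3. The other joined it to the adjoining stretch 169620001 to 169640000 in Control replicate 2 with a score of 12.6. Within its own list each score was above those of the locus's same-chromosome loops, and 41.9% of the interchromosomal loops of Ino80KD replicate 1 and 41.0% of those of Control replicate 2 scored as high or higher. The nearest coding gene is Rgs5, a regulator of G protein signalling named here after the values were seen, 1.12 kb from the Ino80KD stretch. No other bait had an interchromosomal loop within 100 kb of either stretch, and the other 4 baits of the locus had none in any library.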
